A study of Mus musculus with 6 samples.

Results

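The Slc25 genes encode the mitochondrial carrier family, and 47 protein-coding genes of the deposited table carried a symbol of the form Slc25a followed by a number, out of 54532 genes in all. The members were chosen by biotype and name alone. Bulk RNA sequencing measured them in naive CD4+ T cells of C57BL/6 mice, in 3 NETs and 3 vehicle libraries, all after 72 h of culture. Neutrophil extracellular traps (NETs) consist of DNA with attached histones and granule proteins, which neutrophils expel. Cells of both groups had grown with CD3/CD28 beads, IL-2 and antibodies against IFNγ and IL-4, so every library came from stimulated cells. The labels give spleen lymphocytes as the source, with the dose and origin of the NETs not given in the sources used here. No label ties the replicates to different mice or wells, and p-values therefore describe only the spread among these samples, which may be technical.

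Mitochondrial carriers are small proteins of the inner mitochondrial membrane that exchange one metabolite for another. They bring ADP, phosphate, cofactors and amino acids into the matrix, and let ATP, citrate and aspartate out. In activated T cells they connect mitochondrial respiration with the synthesis of lipids and nucleotides in the cytosol. Each carrier is built from repeats of one sequence unit, so most members are close in size.

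The coding sequences showed that common size. By the GENCODE M21 annotation of build GRCm38, the longest coding sequence of each member had a median of 954 nucleotides without the stop codon, and 39 of 47 lay between 800 and 1200. Slc25a12 and Slc25a13, at 2031 and 2028 nucleotides, were the longest. Both carry a calcium-binding extension before the carrier part, as do the products of Slc25a25 (1542), Slc25a24 (1425) and Slc25a23 (1401). The other members outside that band were Slc25a54 (1419), Slc25a46 (1254) and Slc25a2 (795). For 44 of the 47 members the deposited start, end and strand equalled those of GRCm38, and the coordinates below are the deposited ones.

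Libraries held 15657622 to 18655997 counts, and CPM below means counts per library total on the usual CPM scale. The 8 markers of CD4 T cells summed to 3649 to 3947 CPM in NETs and 3685 to 4252 CPM in vehicle libraries. Markers of other cells were low. The 6 monocyte, macrophage and dendritic cell markers summed to 36.05 to 44.4 CPM in NETs and 23.1 to 35.1 CPM in vehicle libraries, with 2 of them higher and 1 lower in every NETs library. The 8 neutrophil markers summed to 3.90 to 4.95 CPM in NETs and 1.55 to 2.75 CPM in vehicle libraries. Ly6g was at 0 in all 6, and 2 markers were higher in every NETs library. S100a9 had 16, 24 and 20 reads in NETs libraries and 0 in each vehicle library (log2 7.30, edgeR adjusted p = 0.170). S100a8 had 7, 11 and 10 reads, against 0, 1 and 0. Ltf, Camp, Ngp, Elane and Mpo overlapped between the groups. Of all genes tested, 7.68% were higher and 9.04% lower in every NETs library. The 6 erythroid markers summed to at most 2.62 CPM in NETs and 1.31 CPM in vehicle libraries. Sums reached at most 20.8 CPM in any library for CD8 T cell, B cell and NK cell markers. The part of these cells in the results on carriers was not tested. In bulk libraries fewer cells of a type and less RNA per cell cannot be told apart.

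The family was broadly expressed, but very unevenly. Levels between genes are compared in FPKM as deposited, a level per gene length and library depth, averaged over all 6 libraries. The length implied by the FPKM was shorter than the deposited one for most members. It was even shorter than the coding sequence for Slc25a17 (720 against 921 bases), Slc25a11 (839 against 942) and Slc25a1 (844 against 933). The same held for Slc25a12 (1670 against 2031), Slc25a13 (1579 against 2028), Slc25a38 (858 against 978) and Slc25a39 (917 against 1077). The order of levels is therefore uncertain, and Slc25a17, for example, ranked 6 by FPKM and 15 by CPM. Over 100 FPKM stood 3 members, 8 lay above 50 to 100, 15 above 10 to 50, 11 above 1 to 10 and 8 above 0 to 1, and 2 were at 0. The members kept by the filter on low counts, 39 of 47, had a median of 19.2 FPKM, beside 14.3 FPKM for the 13900 genes tested. The 3 highest were Slc25a5 (437 FPKM), Slc25a3 (294 FPKM) and Slc25a4 (121 FPKM), the carriers that supply ATP synthase with ADP and phosphate. They were followed by Slc25a11 (95.6 FPKM), Slc25a12 (71.8 FPKM), Slc25a17 (68.7 FPKM), Slc25a23 (66.3 FPKM) and Slc25a1 (65.4 FPKM). The ranges of the last 4 over the 6 libraries overlapped, and these genes were not tested against each other. Of these 8, 6 were also among the 8 highest by CPM, which is not corrected for gene length.

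**Figure D1:**
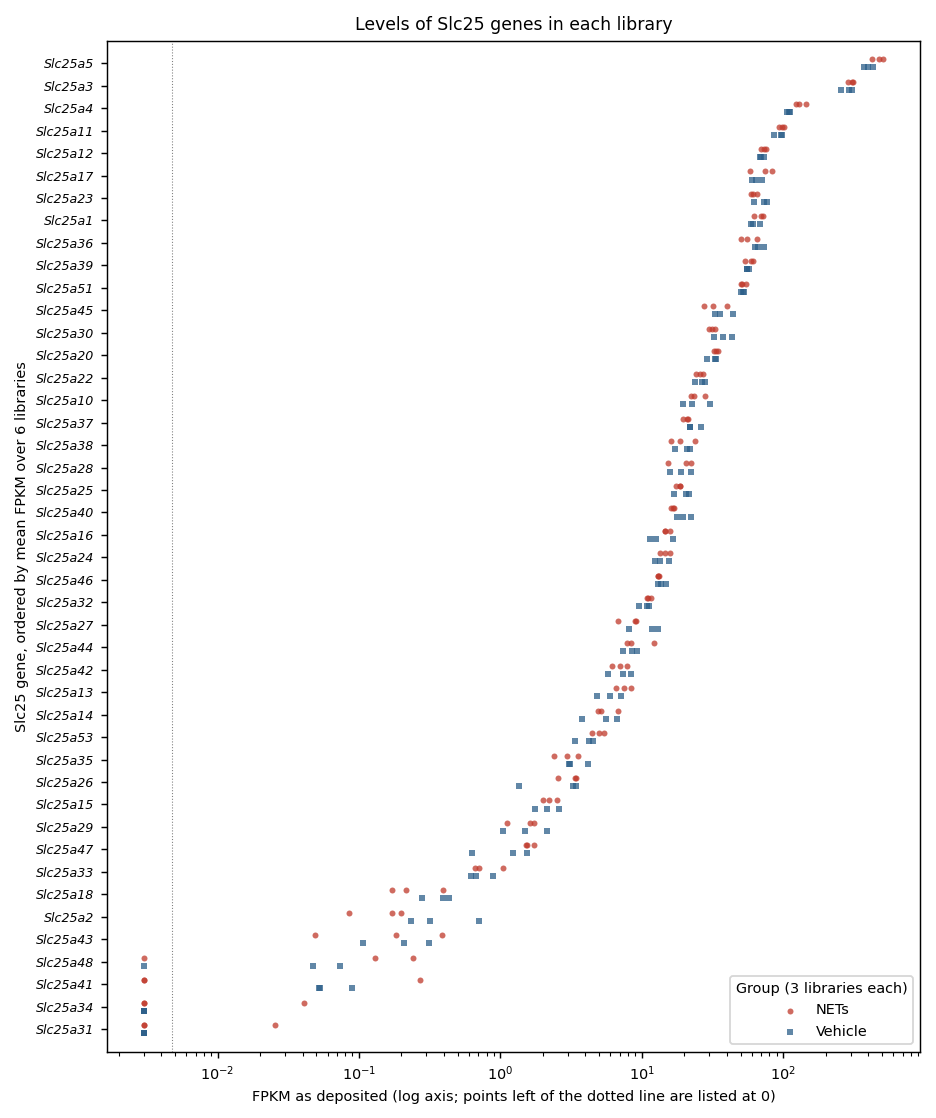
FPKM of Slc25 genes with reads, on a log axis, with 1 point per library; NETs libraries are circles drawn above the vehicle squares. Slc25a5, Slc25a3 and Slc25a4 stand above the other members, and the groups overlap in most genes.

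Together the 47 members took 2576, 2499 and 2386 CPM in NETs replicates 1 to 3, against 2407, 2340 and 2436 CPM in vehicle replicates 1 to 3. The groups overlapped, and the ratio of the NETs to the vehicle mean was 1.04. Slc25a3, Slc25a4 and Slc25a5 alone made up 47.1%, 45.8% and 44.0% of this sum in NETs libraries and 41.8%, 39.7% and 43.8% in vehicle libraries, so the groups were separate, with a narrow gap. The other 44 members together summed to 1363, 1355 and 1337 CPM in NETs libraries and to 1400, 1411 and 1368 CPM in vehicle libraries. With the TMM factors of the fit applied, those sums were 1352 to 1368 in NETs and 1358 to 1424 in vehicle libraries, and the groups overlapped.

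Across the whole comparison, edgeR (quasi-likelihood test, Benjamini-Hochberg adjustment) called 0 of 13900 genes (0%) at an adjusted p of 0.05, and 0 of the 39 Slc25 genes tested. DESeq2 called 130 genes (0.935%), of which 0 were Slc25 genes. It gave no adjusted p to 10 of the 39, and to 5659 of the 13900 genes. By DESeq2, 4 of the 39 (10.3%) were at an unadjusted p under 0.05, against 12.5% of all genes tested. By edgeR, 3 of the 39 (7.69%) were, against 12.8% of all genes tested. In the higher direction these were Slc25a4 and Slc25a5, 2 of 39, against 6.72% of all genes, and in the lower direction Slc25a36, 1 of 39, against 6.06%. The family's share was below the background share in this fit and in 6 of the 11 alternative fits. It was above it in the other 5, with DESeq2 size factors (15.4%, against 12.8% of all genes), among protein-coding genes only (15.4%, against 13.4%), with no filter on low counts (11.1%, against 9.96%), without NETs replicate 3 (12.8%, against 12.6%) and without vehicle replicate 3 (23.1%, against 20.4%). Log2 fold changes of the 39 ran between −0.48 and 0.50 around a median of 0.05 (0.00 for all genes), and 23 of them were above 0 (59.0%, against 50.2% of all genes). Their median size without sign was 0.12, against a median standard error of 0.13.

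**Figure D2:**
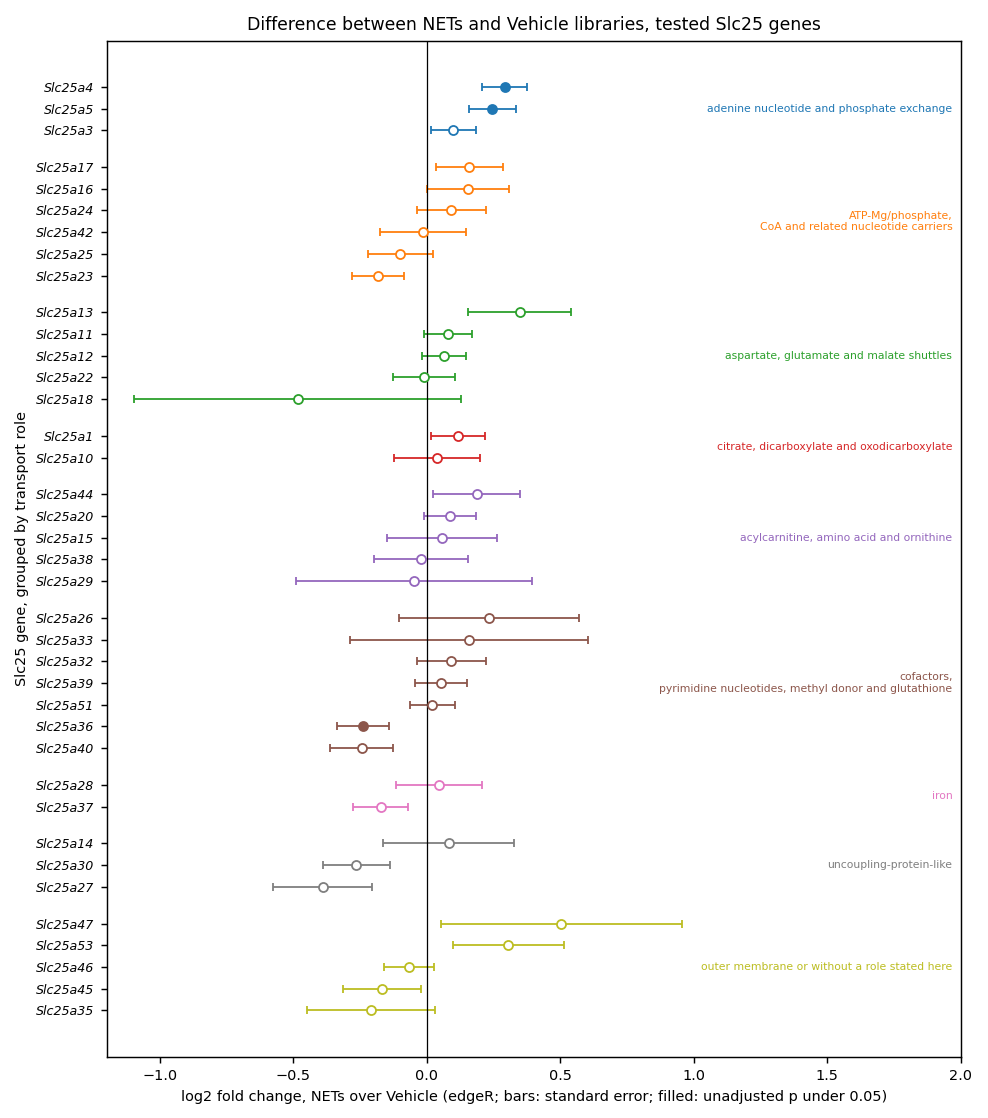
Log2 fold change of NETs over vehicle for tested Slc25 genes, grouped by transport role, with standard errors derived from the edgeR test. Filled points have an unadjusted p under 0.05. Slc25a4 and Slc25a5 lie above 0 and Slc25a36 below, and many of the other bars cross 0.

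Of the adenine nucleotide and phosphate carriers, Slc25a4 and Slc25a5 were above vehicle at an unadjusted p under 0.05. Slc25a4 encodes the adenine nucleotide translocase ANT1, which exchanges matrix ATP for cytosolic ADP (chromosome 8, 46206797 to 46211284, minus strand). It had 233, 206 and 196 CPM in NETs libraries, against 176, 170 and 178 CPM in vehicle libraries. All 3 NETs libraries lay above all 3 vehicle libraries, with NETs replicate 1 the highest. The means were 212 ± 18.8 CPM with NETs and 175 ± 4.31 CPM with vehicle (SD, n = 3 each), which is 1.22-fold (log2 0.29, SE 0.08, edgeR adjusted p = 0.223). It was the only one of the 39 with all NETs libraries above all vehicle libraries in CPM (2.56%), against 7.68% of all genes tested. With the TMM factors applied, a scale added after seeing the data, 4 members were so separated, Slc25a4, Slc25a5, Slc25a47 and Slc25a53 (10.3%, against 8.72% of all genes).

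Slc25a5 encodes ANT2, the translocase of dividing cells (chromosome X, 36795651 to 36798807, plus strand). It had 512, 478 and 425 CPM in NETs libraries, against 396, 375 and 432 CPM in vehicle libraries. NETs replicate 3 lay just below vehicle replicate 3, an overlap that was absent once the TMM factors were applied. On the log2 scale NETs exceeded vehicle by 0.24 (SE 0.09, edgeR adjusted p = 0.279). The transcript of Slc25a5 is not unique: of its stretches of 50 bases, 46.6% also occurred in transcripts of other genes, chiefly Gm5560 and Gm5529. Those had 36 and 18 counts over all 6 libraries. The treatment of reads with several matches was not described, so the count of Slc25a5 is uncertain to that extent. No stretch of that length in the Slc25a4 transcript occurred in another gene.

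Slc25a3, the phosphate carrier (chromosome 10, 91116574 to 91124059, minus strand), had 468, 459 and 428 CPM in NETs libraries, against 434, 385 and 456 CPM in vehicle libraries. The groups overlapped, since vehicle replicate 3 reached the level of the NETs libraries, and the log2 fold change was 0.10 (SE 0.08, edgeR adjusted p = 0.642). Slc25a31, the translocase of the male germ line, had 1 read with NETs and 0 with vehicle. Slc25a5 exceeded Slc25a4 to much the same degree in both groups, by 3.57 ± 0.13 times with NETs and 3.68 ± 0.18 times with vehicle in FPKM (SD, n = 3 each; exact permutation p = 0.5). Slc25a4 was at an unadjusted p under 0.05 in 11 of 11 alternative fits and Slc25a5 in 9 of 11, the exceptions being the fits without NETs replicate 1 (log2 fold change 0.18) and without vehicle replicate 1 (0.22).

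**Figure D3:**
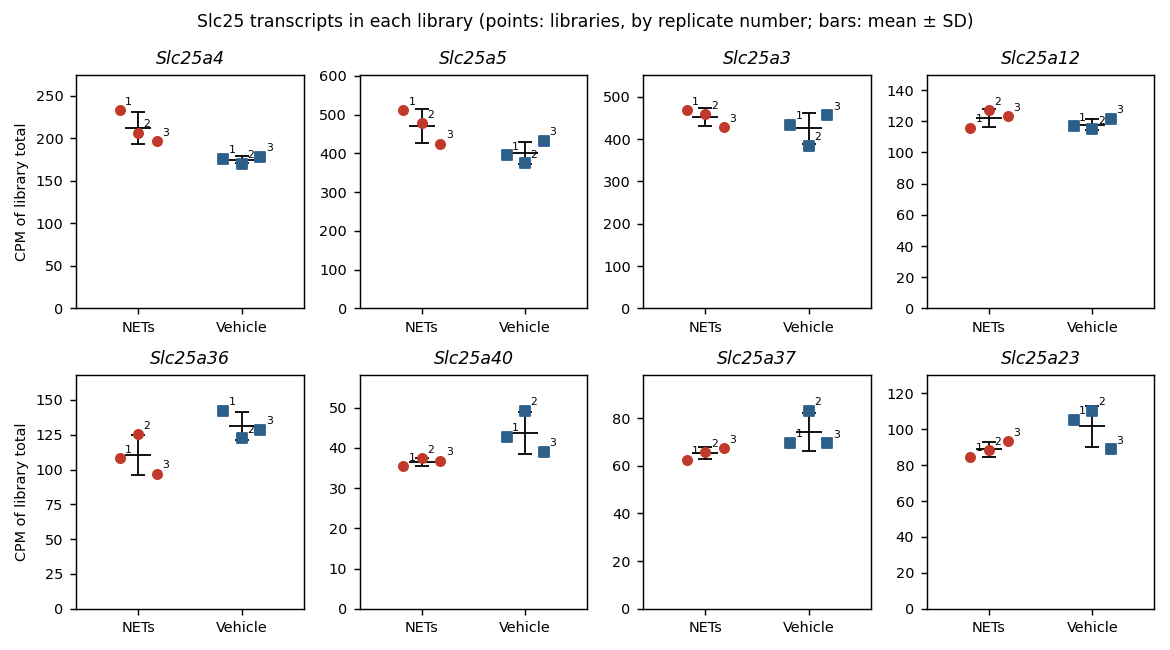
CPM of 8 Slc25 genes in each library, with replicate numbers beside the points and the mean ± SD of each group in black. Slc25a4 is separated upward, Slc25a40 and Slc25a37 downward, and the other genes overlap between NETs and vehicle libraries.

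The promoters of the translocase genes are printed because these are the 2 members above vehicle at an unadjusted p under 0.05. Each sequence runs from 250 bases before to 50 after the RefSeq start in build GRCm38.p6, 5′ to 3′ on the strand of the gene. The windows are chr8:46211013-46211312 (minus strand) and chrX:36795347-36795646 (plus strand). Capitals mark matches, on either strand, to 3 motifs: CACGTG, the E-box that Myc and related factors recognise, CTTCCGG, a core of ETS-family factors, and GCGCA with GCGC after any 1 base, a core of the respiratory factor NRF1.
Slc25a4: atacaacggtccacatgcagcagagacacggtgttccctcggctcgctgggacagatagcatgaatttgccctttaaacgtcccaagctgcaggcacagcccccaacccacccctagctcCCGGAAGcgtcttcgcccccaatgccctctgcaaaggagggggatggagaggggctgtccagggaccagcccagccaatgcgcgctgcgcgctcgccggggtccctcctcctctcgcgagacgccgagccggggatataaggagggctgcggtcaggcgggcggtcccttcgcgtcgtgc
Slc25a5: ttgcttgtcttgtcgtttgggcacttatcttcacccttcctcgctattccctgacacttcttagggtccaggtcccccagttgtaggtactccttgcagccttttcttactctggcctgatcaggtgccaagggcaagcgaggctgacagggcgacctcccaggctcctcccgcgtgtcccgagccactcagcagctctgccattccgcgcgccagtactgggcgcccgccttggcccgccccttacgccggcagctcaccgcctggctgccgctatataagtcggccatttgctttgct
Slc25a4 held 1 match to the ETS core, starting 130 bases before the RefSeq start. That start lies 222 bases downstream of the deposited gene start, so the match falls inside the gene as deposited. The Slc25a5 window held none of the 3 motifs. RefSeq promoters, with starts 0 to 440 bases from the deposited one but 15083 bases for Slc25a47, were matched for 36 of the 47 members. The ETS core was found in 7 of these (19.4%), against 8.86% of all 32851 promoters in that table. The E-box was found in 6 (16.7%, against 7.15%), and the NRF1 core in 2 (5.56%, against 4.60%), Slc25a3 and Slc25a31. The motifs can overlap each other, the table has more than 1 promoter for some genes, and a match describes letters, not binding.

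Carriers of cofactors, pyrimidine nucleotides and glutathione included Slc25a36, below vehicle at an unadjusted p under 0.05. They also included Slc25a40, below vehicle but just outside that threshold (edgeR unadjusted p = 0.0532). Slc25a36, which carries pyrimidine nucleotides into the matrix (chromosome 9, 97074961 to 97111157, minus strand), had 108, 125 and 97.1 CPM in NETs libraries, against 142, 123 and 128 CPM in vehicle libraries. NETs replicate 2 lay above vehicle replicate 2, so the groups overlapped. The log2 difference was −0.24 (SE 0.10, edgeR adjusted p = 0.336). Its unadjusted p was above 0.05 in 3 alternative fits, without NETs replicate 1 (−0.22), NETs replicate 3 (−0.16) or vehicle replicate 1 (−0.19). An antisense gene, Gm16185, lies inside Slc25a36 (97085326 to 97088610) and averaged 11.1 ± 1.57 CPM with NETs and 17.3 ± 4.85 CPM with vehicle (SD, n = 3 each) (log2 −0.64, edgeR adjusted p = 0.238). Strand use in the counting was not described, so reads of Slc25a36 and Gm16185 cannot be told apart there. Its paralog Slc25a33, also a pyrimidine nucleotide carrier, was scarce, with 34, 23 and 23 reads in NETs libraries, against 22, 20 and 27 reads in vehicle libraries. In FPKM it stood at 0.81 ± 0.21 with NETs and 0.73 ± 0.14 with vehicle, with overlapping groups.

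Slc25a40 and Slc25a39 encode the paired carriers that bring glutathione into mitochondria. Slc25a40 (chromosome 5, 8422850 to 8454797, plus strand) had 35.5, 37.5 and 36.9 CPM in NETs libraries, against 42.8, 49.3 and 39.04 CPM in vehicle libraries. All NETs libraries lay below all vehicle libraries, and vehicle replicate 2 was the highest. NETs were below vehicle by a log2 value of −0.25 (SE 0.12, edgeR adjusted p = 0.398), and by −0.14 without vehicle replicate 2. The unadjusted p of Slc25a40 was under 0.05 in 3 of 11 alternative fits. Slc25a39 had 56.1, 54.8 and 49.3 CPM in NETs libraries, against 53.1, 51.3 and 51.2 CPM in vehicle libraries, with overlapping groups (log2 0.05, SE 0.10). The FPKM ratio of Slc25a39 over Slc25a40 was 3.79, 3.51 and 3.21 in NETs libraries, against 2.97, 2.49 and 3.15 in vehicle libraries. The groups did not overlap, and the two-sided exact permutation p was 0.1, the smallest that 3 against 3 libraries allow (0.343 adjusted over 8 paralog pairs). The log2 difference of this ratio was 0.29, and 0.19 without vehicle replicate 2.

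The promoters of Slc25a36, below vehicle at an unadjusted p under 0.05, and Slc25a40, just outside it, are given for comparison with those of the translocases. The windows are chr9:97110992-97111291 (minus strand) and chr5:8422588-8422887 (plus strand), with the same motifs in capitals.
Slc25a36: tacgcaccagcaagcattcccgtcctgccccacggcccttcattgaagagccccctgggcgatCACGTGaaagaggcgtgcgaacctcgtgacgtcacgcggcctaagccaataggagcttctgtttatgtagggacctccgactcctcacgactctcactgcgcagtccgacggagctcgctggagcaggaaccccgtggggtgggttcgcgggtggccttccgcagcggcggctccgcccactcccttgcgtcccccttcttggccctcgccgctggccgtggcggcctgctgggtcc
Slc25a40: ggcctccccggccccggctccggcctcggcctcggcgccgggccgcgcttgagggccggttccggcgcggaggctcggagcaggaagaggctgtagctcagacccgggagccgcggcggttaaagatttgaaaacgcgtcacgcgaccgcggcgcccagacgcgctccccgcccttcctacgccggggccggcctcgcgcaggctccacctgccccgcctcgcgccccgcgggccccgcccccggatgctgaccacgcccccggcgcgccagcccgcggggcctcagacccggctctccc
Slc25a36 held 1 E-box, starting 187 bases before the RefSeq start, which lies 116 bases downstream of the deposited gene start. Slc25a40 held none of the 3 motifs.

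Of the other cofactor carriers, Slc25a51, which imports NAD, was among the steadiest members, at 108 ± 5.04 CPM with NETs and 107 ± 2.97 CPM with vehicle (SD, n = 3 each; log2 0.02, SE 0.08). Slc25a32, which serves folate and FAD import, stood at 0.09 (SE 0.13). Slc25a26, the S-adenosylmethionine carrier, was at 0.23 (SE 0.34), with means of 4.29 CPM with NETs and 3.67 CPM with vehicle. Slc25a26 also overlaps the far more abundant Lrig1 on the opposite strand. Of the 8 genes in this group, 5 were above 0, with a median log2 fold change of 0.04.

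Iron enters mitochondria through the mitoferrins, Slc25a37 and Slc25a28. Slc25a37 (mitoferrin 1; chromosome 14, 69241848 to 69285112, minus strand) had 62.5, 65.7 and 67.4 CPM in NETs libraries, against 69.7, 83.2 and 69.4 CPM in vehicle libraries. All NETs libraries lay below all vehicle libraries, but vehicle replicate 2 stood apart from the others. The log2 value was −0.17 (SE 0.10, edgeR adjusted p = 0.490), and −0.074 without vehicle replicate 2. Slc25a37 is known for its high level in erythroid cells, whose 6 markers summed to at most 2.62 CPM in any library. Slc25a28 (mitoferrin 2) had 30.9, 23.4 and 33.8 CPM in NETs libraries, against 28.5, 33.5 and 23.9 CPM in vehicle libraries, spread widely and overlapping. Slc25a37 and Slc25a40 were the 2 tested members with all NETs libraries below vehicle (5.13%, against 9.04% of all genes tested in CPM and 7.84% with the TMM factors applied, where both were also separated).

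The malate-aspartate shuttle, which passes cytosolic reducing power to mitochondria, includes the abundant Slc25a11 and Slc25a12. Slc25a11, the oxoglutarate carrier, had 85.1, 82.6 and 78.6 CPM in NETs libraries, against 81.9, 72.0 and 81.2 CPM in vehicle libraries, with overlapping groups. Its 5′ end overlaps the oppositely oriented gene Rnf167. Slc25a12, the aspartate-glutamate carrier AGC1, had 116, 127 and 123 CPM in NETs libraries, against 117, 115 and 122 CPM in vehicle libraries. The log2 fold changes were 0.08 (SE 0.09) for Slc25a11 and 0.06 (SE 0.08) for Slc25a12. The second aspartate-glutamate carrier, Slc25a13, was far lower, at 7.51 ± 0.90 FPKM with NETs and 5.96 ± 1.14 FPKM with vehicle (log2 0.35, SE 0.19, edgeR adjusted p = 0.473; 0.22 without vehicle replicate 2). The glutamate carrier Slc25a22 stood at −0.01 (SE 0.12), while its paralog Slc25a18 had 26 reads in all with NETs and 35 with vehicle.

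Slc25a1, which exports citrate for lipid synthesis, had 58.6, 60.7 and 52.4 CPM in NETs libraries, against 57.6, 50.3 and 51.7 CPM in vehicle libraries, with overlapping groups (log2 0.12, SE 0.10). The dicarboxylate carrier Slc25a10 was at 0.04 (SE 0.16). The oxodicarboxylate carrier Slc25a21 had no read, which allows up to 3 counts per group, or 0.0569 CPM with NETs and 0.0595 CPM with vehicle.

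Slc25a23, a calcium-regulated carrier of ATP-Mg and phosphate, had 84.8, 88.2 and 93.2 CPM in NETs libraries, against 105, 110 and 88.9 CPM in vehicle libraries. Vehicle replicate 3 lay among the NETs libraries, so the groups overlapped, at a log2 value of −0.18 (SE 0.10, edgeR adjusted p = 0.453; −0.11 without vehicle replicate 2). The related Slc25a24 and Slc25a25 were at 0.09 (SE 0.13) and −0.10 (SE 0.12). The ratio of Slc25a24 over Slc25a23 in FPKM was 0.226 to 0.243 in NETs libraries and 0.175 to 0.213 in vehicle libraries, without overlap (two-sided exact permutation p = 0.1; 0.343 adjusted over the 8 pairs). Slc25a17, a carrier of CoA and related cofactors in peroxisomes rather than mitochondria, had 60.2, 53.3 and 42.3 CPM in NETs libraries, against 51.0, 43.3 and 46.4 CPM in vehicle libraries. NETs replicate 3 was the lowest of all 6. Slc25a16 and Slc25a42, both linked to CoA, were at 0.15 (SE 0.15) and −0.01 (SE 0.16).

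Carriers of acylcarnitines and amino acids stayed close to 0, with 3 of 5 tested members above it and a median of 0.06. Slc25a20, which brings acylcarnitines to fatty acid oxidation, was at 0.09 (SE 0.10), Slc25a38, a glycine carrier needed for haem, at −0.02 (SE 0.18), and Slc25a44, a carrier of branched-chain amino acids, at 0.19 (SE 0.16). Slc25a44 had 42.2 CPM in NETs replicate 1 and 27.5 and 29.2 CPM in the other NETs libraries, against 25.5 to 32.3 CPM in vehicle libraries. Its difference therefore rested on 1 library, and the log2 fold change was −0.03 without it. Of the ornithine carriers, Slc25a15 was at 0.06 (SE 0.21). Slc25a2 had 4, 5 and 2 reads in NETs libraries, against 18, 5 and 7 reads in vehicle libraries, too few for the filter on low counts.

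Among the carriers that resemble uncoupling proteins, Slc25a30 and Slc25a27 lay just outside an unadjusted p of 0.05 (0.0517 and 0.0529) and are given after their values were seen. Slc25a30 had 32.0, 35.3 and 33.6 CPM in NETs libraries, against 40.4, 46.6 and 35.1 CPM in vehicle libraries. Slc25a27 had 14.2, 19.1 and 18.8 CPM in NETs libraries, against 24.5, 27.3 and 16.9 CPM in vehicle libraries. Vehicle replicate 3 was the lowest vehicle library for both. The log2 fold changes were −0.26 (SE 0.12) and −0.39 (SE 0.19), with edgeR adjusted p of 0.394 and 0.398. Without vehicle replicate 2 they were −0.15 and −0.24, and without vehicle replicate 3 −0.36 and −0.57. In the same group Slc25a14 was at 0.08 (SE 0.24).

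The remaining genes are Slc25a46, an outer-membrane member that takes part in mitochondrial dynamics, and 8 for which no role is stated here. Slc25a46 was at −0.07 (SE 0.09). Of the 4 others tested, Slc25a45 was at −0.17 (SE 0.15), Slc25a35 at −0.21 (SE 0.24), Slc25a53 at 0.30 (SE 0.21) and Slc25a47 at 0.50 (SE 0.45), the last from 94 reads with NETs and 65 with vehicle. Slc25a53 overlaps the oppositely oriented gene Zcchc18, so their reads cannot be told apart there. Not tested for low counts were Slc25a43 (13 reads in each group), Slc25a48 (22 with NETs, 7 with vehicle), Slc25a34 (2 and 0) and Slc25a54 (0 and 0), as was the ATP-Mg carrier Slc25a41 (6 and 4).

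Libraries of one group did not move together over the family. Of the 39 tested members, 14 (35.9%) were lowest of all 6 libraries in vehicle replicate 2 by CPM. Another 9 (23.1%) were highest there, and the shares of all genes tested were 25.2% and 20.6%. NETs replicate 1 was the highest library for 10 members (25.6%, against 19.4% of all genes). Vehicle replicate 3 had values near those of NETs libraries for Slc25a5, Slc25a23, Slc25a27, Slc25a30 and Slc25a40. Without vehicle replicate 3, edgeR placed 4 members higher and 5 lower at an unadjusted p under 0.05 (10.3% and 12.8%), against 11% and 9.48% of all genes. In that fit 405 genes (2.81%) passed an adjusted p of 0.05, and 0 of the 39 did, with 0.0697 for Slc25a27 the smallest.

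**Figure D4:**
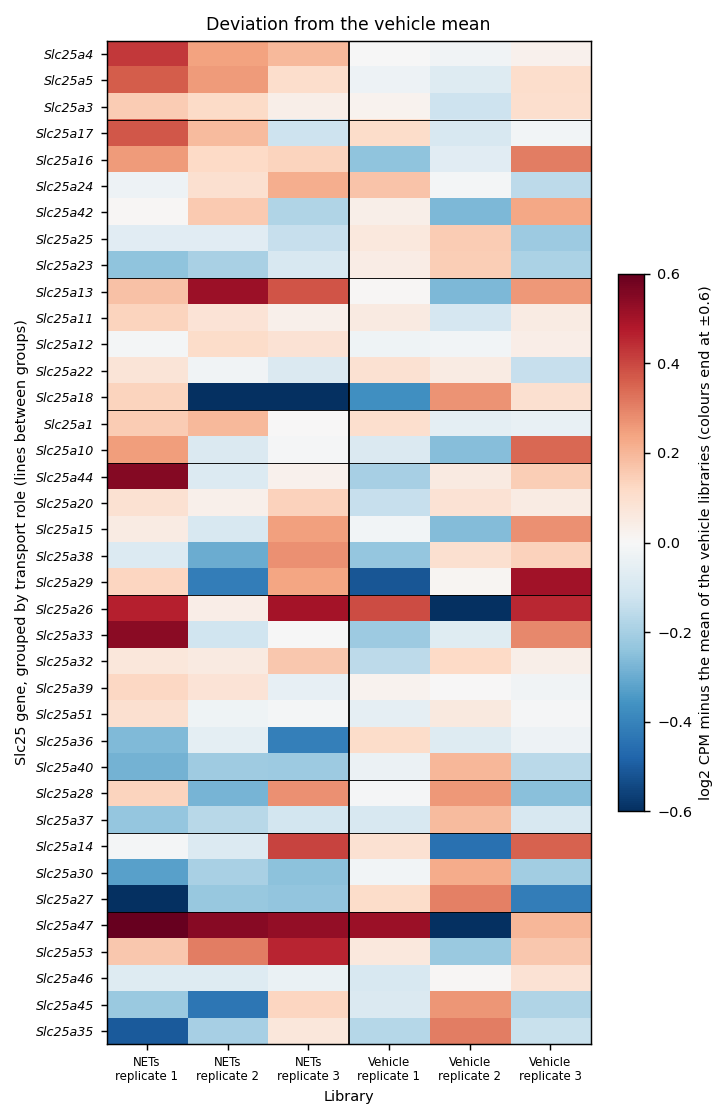
Log2 CPM of tested Slc25 genes, with the TMM factors applied, minus the mean of the vehicle libraries. Columns are libraries, with NETs libraries on the left. Slc25a4 is above the vehicle mean in all 3 NETs libraries, as are Slc25a1, Slc25a3, Slc25a5, Slc25a11 and further members. Vehicle replicate 2 is the lowest library for some members and the highest for others.

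Genes outside the Slc25 symbols that belong to the same transport system were described by their counts and medians, beside 50.2% above 0 and a median of 0.00 for all genes tested; no test of a list was made. Of 5 carriers of the family named otherwise, 3 were tested and all had a log2 fold change above 0. Mtch1, an outer-membrane relative, had 230, 185 and 197 CPM in NETs libraries, against 158, 150 and 181 CPM in vehicle libraries (log2 0.34, SE 0.10, edgeR adjusted p = 0.223). Ucp2, the uncoupling protein of lymphoid cells, was higher in every NETs library, at 588 ± 5.18 CPM with NETs and 553 ± 17.1 CPM with vehicle, by 0.10 on the log2 scale (SE 0.07, edgeR adjusted p = 0.589). For a list on carrier import into the inner membrane, which also holds chaperones and a receptor, 9 of 10 tested genes were above 0 with a median of 0.21. The small chaperones of the intermembrane space Timm13 (0.58, SE 0.17) and Timm8b (0.49, SE 0.15) were at an unadjusted p under 0.05. That was 2 of 10, against 6.72% of all genes in that direction, and the groups overlapped for Timm13. Timm22 (0.19, SE 0.13), Timm9 (0.23, SE 0.19), Timm10 (0.53, SE 0.36) and Timm10b (0.10, SE 0.29) were not under 0.05. The carrier receptor Tomm70a was at 0.00. Other inner-membrane transporters had 15 of 18 above 0 and a median of 0.14. Smdt1, a subunit of the calcium uniporter, was at 0.45 (SE 0.13), with overlapping groups. It was 1 of 18 at an unadjusted p under 0.05 in that direction, against 6.72% of all genes. The lowest of this list was Sfxn4, at −0.49 (SE 0.30). The outer-membrane channels Vdac1, Vdac2 and Vdac3 were at 0.15, 0.12 and 0.08. Like Ucp2, the genes Mtch1, Timm8b and Vdac2 had all NETs libraries above all vehicle libraries in CPM. In the order of the lists above, that was 2 of 3, 1 of 10, 0 of 18 and 1 of 3 tested genes, against 7.68% of all genes tested. By edgeR 0 genes of these lists passed an adjusted p of 0.05.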

How the data were processed

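Per the labels, RNA of NETs and vehicle treated naive CD4+ T cells was purified with RNeasy kits and sequenced as Illumina libraries. Deposited were raw read counts per gene, in whole numbers (2 tables, with 0 differing values), and the authors' FPKM. The submitters' processing notes name STAR, DESeq2 and the build mm9, without versions. Counting program, annotation and strand use: not given in the sources used here. The length behind the deposited FPKM was 0.201 to 1 times the deposited gene length for the Slc25 genes with reads, and FPKM served only to compare levels between genes. 

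Counts were tested across 13900 genes kept by filterByExpr, out of 54532, with edgeR 4.0.16 (R 4.3.3; TMM factors, robust quasi-likelihood fit, group as the only term, two-sided). Adjustment followed Benjamini and Hochberg across every gene tested, with a threshold of 0.05. Standard errors (SE) were derived as the size of the log2 fold change over the square root of the F statistic of the edgeR test. CPM values use the library totals without TMM factors. On simulated data for 3 against 3 libraries and 13663 genes, the test called 96% of 100 genes changed 2-fold and 47% of 100 changed 1.5-fold. It also called 9 unchanged genes. The simulation gave every gene the same spread between libraries and changed only genes above a minimum mean count. These rates need not hold for genes with few counts or a larger spread. Alternatives were another normalization, no filter, DESeq2 1.42.0, a replicate block, protein-coding genes only, and leaving out each library. Intervals and floors cover counting error only; a gene at 0 was given a floor of 3 counts per group.

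Values in every library were to be given for members with an unadjusted p under 0.05, members whose groups did not overlap, the 8 highest by FPKM, and their paralogs, and the others by ranges and counts. Members followed from biotype and symbol, but this family, its roles and the lists were chosen with earlier results of these data known. Stretches of 50 bases were compared with all GENCODE M21 transcripts. Counts over the family include 1 member that is not reported here by name.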

Additional observations from a re-analysis of the deposited data

How the results depend on the processing

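Over the 11 alternative fits, 0 Slc25 genes passed an adjusted p of 0.05. The count over all genes was 0 with DESeq2 size factors, the replicate block and protein-coding genes only, but 322 with no filter on low counts and 130 with DESeq2, and 0 to 405 when leaving out 1 library, the highest without vehicle replicate 3. The 2 members at an unadjusted p under 0.05 in the higher direction became 1 to 4 without 1 library, while the share of all genes ran between 3.03% and 11%. The 1 in the lower direction became 4 with DESeq2 size factors (background 6.42%), 3 with no filter (4.67%), 2 with DESeq2 (6.28%), 4 among protein-coding genes only (6.63%), and 0 to 5 without 1 library (3.02% to 9.48%). Members with all NETs libraries above vehicle were 4 in TMM-scaled CPM, a scale added after seeing the data, and 2 were below, as in CPM. The cause was not tested. The median log2 fold change of the members ranged between 0.0083 and 0.0959, and the ratio of their summed CPM between 1.02 and 1.06, without 1 library; that ratio was 1.06 in FPKM. Same-numbered replicates did not deviate together (correlations of −0.02, −0.05 and −0.16), so the numbers were not taken as pairs. The replicate block left 2 members higher and 1 lower at an unadjusted p under 0.05 (5.13% and 2.56%, against 5.14% and 4.47% of all genes).

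Of the log2 fold changes of 39 members in 11 alternatives, 404 kept their direction and, where an adjusted p was given, their side of the threshold. DESeq2 gave no adjusted p to 10 of the 39. The other 25 fold changes changed sign, all on leaving out 1 library. Those ranged between −0.083 and 0.23 for Slc25a10, −0.11 and 0.27 for Slc25a14, −0.063 and 0.20 for Slc25a15, −0.075 and 0.029 for Slc25a22, −0.077 and 0.43 for Slc25a26, −0.074 and 0.19 for Slc25a28, −0.28 and 0.25 for Slc25a29, −0.074 and 0.32 for Slc25a33, −0.19 and 0.10 for Slc25a38, −0.14 and 0.11 for Slc25a42, −0.031 and 0.31 for Slc25a44, and −0.018 and 0.049 for Slc25a51. Depth limits the members under 2 CPM, whose standard errors reached 0.44 to 0.61.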
